A study of Mus musculus with 22 samples.

Results

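The interleukin family of secreted cytokines and their receptors was followed in mouse liver after a single dose of interferon-gamma. Members were all genes whose symbol on the array begins with Il and a digit, without Il1b, read from probe sets (groups of probes for one transcript) that carry 1 symbol. They numbered 44 of the 8251 genes measured, and each was represented by the probe set with the highest mean. By role they were 18 cytokines, 21 receptor chains and 5 antagonists or decoys, which bind a cytokine or its receptor without signalling.

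Livers came from IFNg-/- mice, which lack interferon-gamma, and from SOCS1-/-IFNg-/- mice, which also lack SOCS1, a feedback inhibitor of JAK kinases. Both genotypes therefore shared the absence of the animal's own interferon-gamma. Mice received an intraperitoneal injection of 4 µg recombinant interferon-gamma in 100 µl, and livers were taken at 0.5, 1, 2, 4, 12, 16, 24 and 48 h. Each genotype had 3 controls: 1 without injection and 2 given 100 µl PBS and examined at 4 and 12 h. There was 1 array per genotype and condition, 22 in all. Strain background, age and the number of mice behind a sample are not stated in the labels. Levels are on the log2 scale, and a difference between groups is given as a log2 difference ± SE (standard error from the model). A gene was called where limma's adjusted p, corrected over all 8251 genes, was under 0.05. The 2 genotypes stood in for replicates at each time. The spread behind a p-value by time therefore holds any difference between the genotypes in their response, together with the spread between single arrays, which may be technical. In the tests between genotypes it is the spread of the differences between paired arrays.

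Interleukins signal through receptor chains of a few structural families. Members of the IL-1 and IL-18 family use the adaptor MyD88 and activate NF-kB. Most others bind class I or class II cytokine receptors, which activate JAK kinases and STAT factors. In the liver IL-6, acting through the IL-6 receptor and the shared chain gp130, drives the acute phase response of hepatocytes. IL-1 signalling is held back by a receptor antagonist and a decoy receptor, and IL-18 by a binding protein that is a known target of interferon-gamma.

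Facts of the whole set of arrays were as follows. Socs1 stayed between 6.57 and 7.02 in SOCS1-/-IFNg-/- and reached 9.21 at 2 h in IFNg-/-, whose controls read 6.73 to 6.80. Ifng lay between 2.18 and 2.61 on all arrays. The PBS 12 h arrays carried raised Cxcl9, an interferon-gamma target, at 7.76 and 8.31, against 4.16 to 4.46 on the other 4 control arrays. On the interferon 4 h arrays Cxcl9 read 8.06 (IFNg-/-) and 11.33 (SOCS1-/-IFNg-/-), and Irf1, an interferon regulatory factor, 7.71 and 10.73. In the same order, Cxcl9 read 10.25 and 9.93 at 2 h and 10.99 and 11.48 at 12 h. The cause of the gap at 4 h was not tested. Hepatocyte markers averaged 10.52 to 10.85 on all arrays, and none of the 9 measured was near the floor. Of the markers of other cells, 7 of 11 for T cells, 5 of 7 for NK cells, 6 of 12 for neutrophils and 2 of 14 for macrophages had a mean below 5. In whole liver, fewer cells of a type and less RNA per cell cannot be told apart.

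The larger share of the family lay near the floor of the array, here a mean below 5 over the 22 arrays: 24 of 44 members (54.5%), against 27.8% of all genes. Among cytokines 13 of 18 were near the floor, among receptors 7 of 21 and among antagonists or decoys 4 of 5. Among them were the lymphocyte growth factors Il2 (mean 2.79), Il7 (2.64) and Il15 (2.60), with the receptor chains Il2ra (2.82), Il7r (2.92) and Il5ra (2.12). Il6, the driver of the acute phase response, averaged 2.68 and Il17a 3.35. The members just below the floor were Il12a (4.97), Il16 (4.97) and Il9r (4.94), and those just above were Il18rap (5.14), Il1a (5.18) and Il12rb1 (5.26). A low mean did not always mean a flat record, since Il1rn averaged 4.72 and yet reached 6.38 on 1 array.

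Most members varied little, as did most genes, and members spanned 1 or more in a larger share than genes in general. Over all 22 arrays 27 of 44 spanned less than 0.5 and 36 less than 1 (61.4% and 81.8%), against 55.9% and 90.5% of all genes. The 8 that spanned 1 or more were Il1r1 (2.75), Il1rn (2.07), Il6st (1.73), Il13ra1 (1.38), Il18bp (1.32), Il17ra (1.11), Il6ra (1.09) and Il15ra (1.01). Of these, 6 encode receptor chains and 2 encode inhibitors. None encodes a cytokine.

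**Figure D1:**
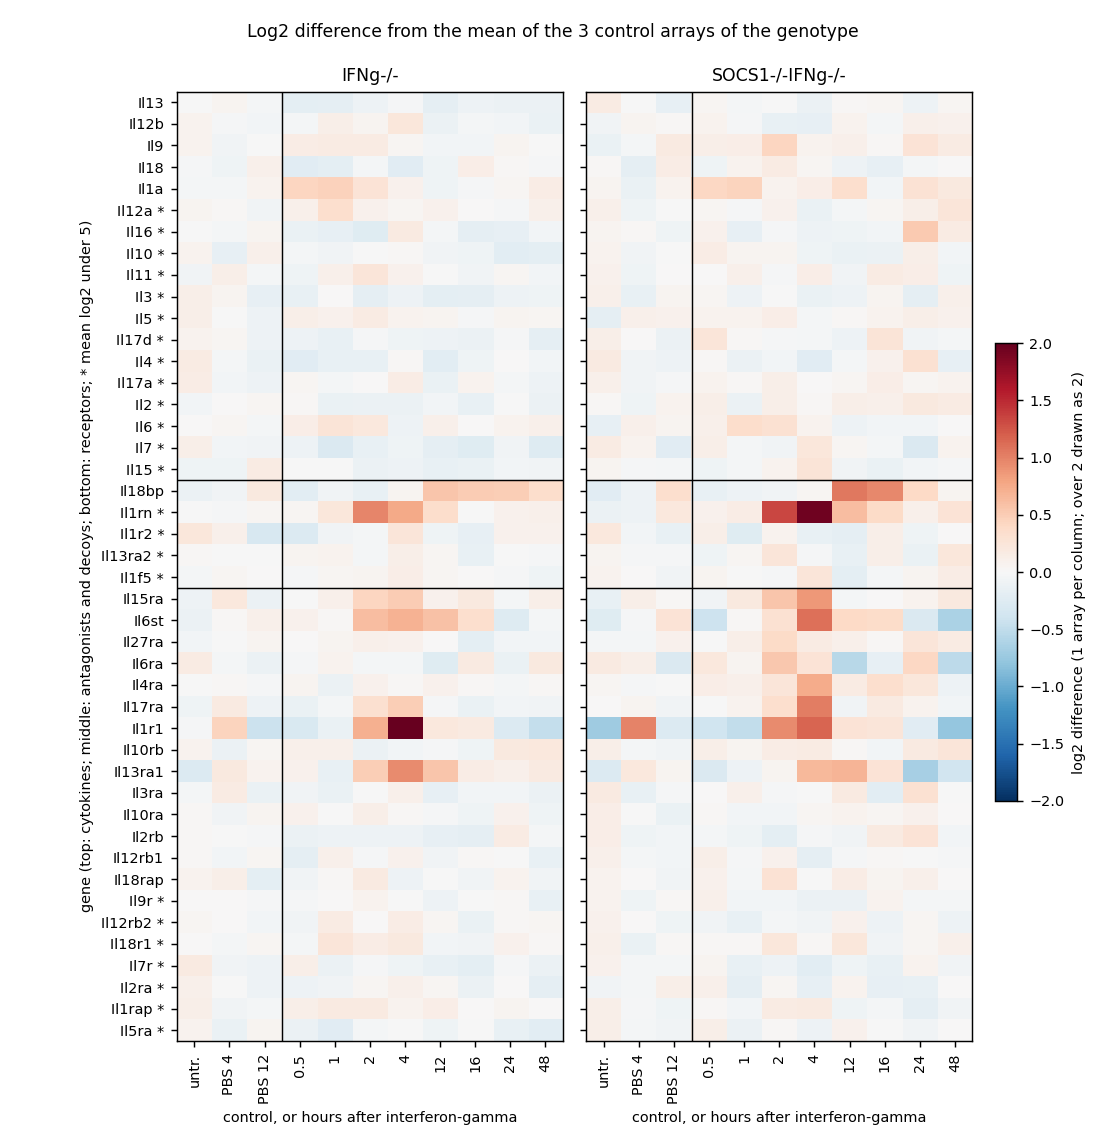
Log2 difference of each member from the mean of the 3 control arrays of its genotype, with 1 array per column and genes grouped by role; an asterisk marks a mean below 5. Colour is concentrated in Il1rn and Il18bp and in receptor rows such as Il1r1, Il6st and Il13ra1, while the 18 cytokine rows stay pale.

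The members called were receptors and inhibitors, but the roles differed in how many members lay above the floor. Above it, 6 of 14 receptor chains, 1 of 1 inhibitor and 0 of 5 cytokines were called at least once, against 594 of 5955 genes. The other 13 of 18 cytokines were near the floor, which limits what could be called. Whether a mean above the floor marks expression of a member was not tested. In 15 comparisons, 8 by time against all controls, 2 against PBS of the same time and 5 between genotypes, 8 of 44 members were called at least once. Of all genes, 8.63% were called at least once. The 8 were 6 of 21 receptor chains (Il1r1, Il6st, Il17ra, Il15ra, Il13ra1 and Il4ra) and 2 of 5 antagonists or decoys (Il1rn and Il18bp). By limma 0 of 18 cytokines were called (smallest adjusted p 0.0882). An unadjusted p under 0.05 in at least 1 comparison was found for 8 of them, 15 of 21 receptor chains and 4 of 5 antagonists or decoys. The share of all genes with such a p in any of the 15 comparisons was not taken. All called differences of members by time were positive, and most of those of all genes were too. Of all genes called, 102 of 137 were higher at 2 h, 259 of 415 at 4 h and 108 of 117 at 12 h. At 16 h 32 of 37 were higher, and against PBS 4 h 82 of 112. The roles were not tested against each other.

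At 4 h, 6 members were called against all controls, and each stood higher: Il1r1, Il1rn, Il6st, Il13ra1, Il17ra and Il15ra. In this comparison 5.03% of all genes were called. Among members at or above the floor 5 of 20 were called, against 5.99% of all such genes, and among those near it 1 of 24, against 2.53%. The median difference was 0.05 over the members and -0.03 over all genes. At 2 h, where 1.66% of all genes were called, Il1rn and Il15ra were called. At 12 h (background 1.42%) and 16 h (0.448%) Il18bp was called.

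No member was called by limma at 0.5, 1, 24 or 48 h, where 0%, 0.158%, 0.17% and 0.0121% of all genes were called. Members with an unadjusted p under 0.05 numbered 1, 3, 3 and 3 (2.27%, 6.82%, 6.82% and 6.82%). Of all genes, 5.79%, 4.48%, 9.88% and 6.69% had such a p at these times.

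**Figure D2:**
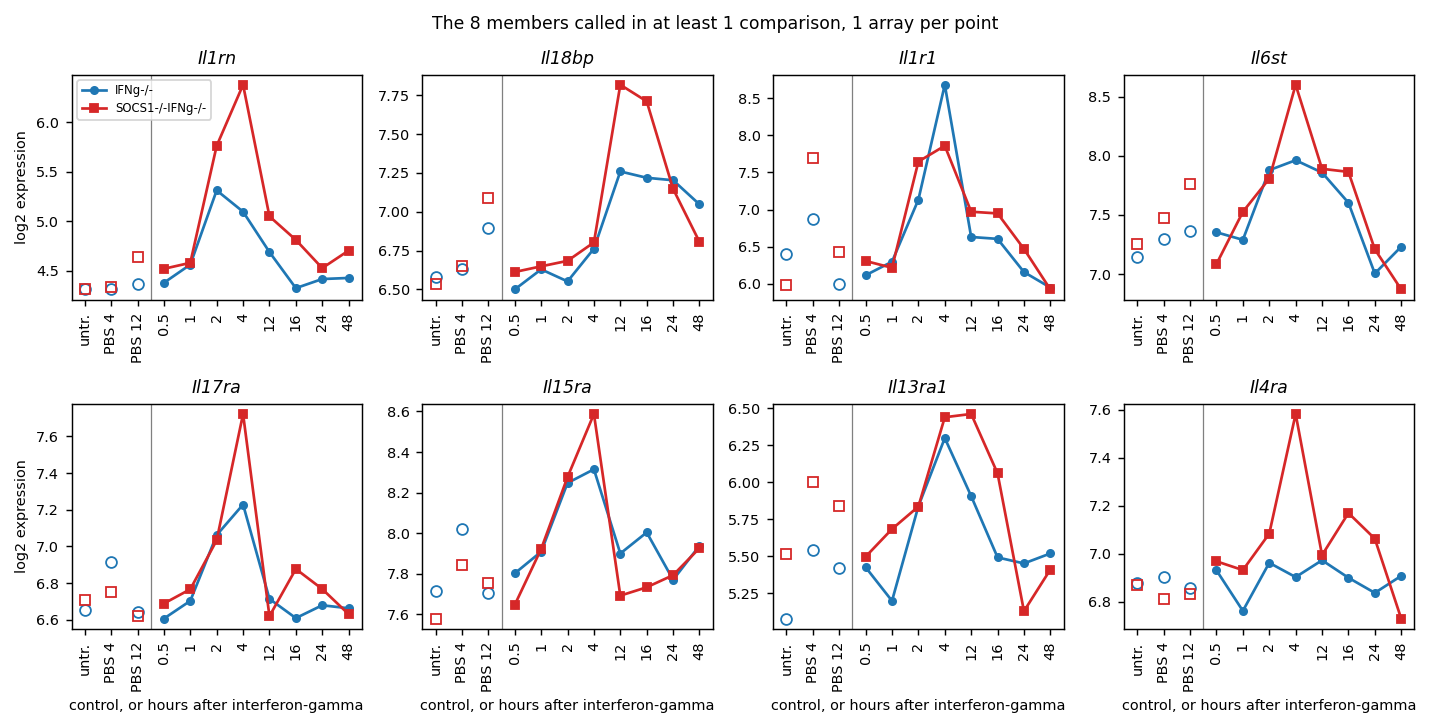
Log2 expression of the 8 called members on each array, with open symbols for the controls and lines joining the times after interferon-gamma in each genotype. Il1rn, Il15ra, Il17ra and Il6st peak at 2 or 4 h, whereas Il18bp is highest at 12 h.

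Il1rn encodes the IL-1 receptor antagonist, which occupies the IL-1 receptor without signalling. On the control arrays it lay between 4.31 and 4.64. The 8 IFNg-/- arrays after interferon-gamma read, in order of time, 4.38, 4.56, 5.31, 5.10, 4.69, 4.32, 4.42 and 4.43. Those of SOCS1-/-IFNg-/- read 4.52, 4.58, 5.76, 6.38, 5.05, 4.81, 4.53 and 4.70. Both genotypes exceeded every control array at 2, 4 and 12 h. It rose by 1.16 ± 0.18 at 2 h (adjusted p = 0.00279) and by 1.36 ± 0.18, or 2.56-fold, at 4 h (adjusted p = 0.000556). The 4 h value was 0.82 without the SOCS1-/-IFNg-/- 4 h array and 1.89 without the IFNg-/- one, and the call held in both. The 12 h difference was 0.49 ± 0.18 (adjusted p = 0.247).

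Il18bp encodes the IL-18 binding protein, a soluble inhibitor of IL-18. Untreated and PBS 4 h arrays read 6.53 to 6.65, and the PBS 12 h arrays 6.90 and 7.09. Up to 4 h after interferon-gamma it stayed between 6.5 and 6.80. At 12, 16, 24 and 48 h the IFNg-/- arrays then read 7.26, 7.22, 7.20 and 7.05, and those of SOCS1-/-IFNg-/- 7.82, 7.71, 7.15 and 6.81. In both genotypes the 12, 16 and 24 h arrays lay above all 6 controls. It rose by 0.81 ± 0.12 at 12 h (adjusted p = 0.00245) and by 0.73 ± 0.12 at 16 h (adjusted p = 0.0114). At 24 h the difference was 0.45 ± 0.12 and was not called (adjusted p = 0.203). The controls include the PBS 12 h arrays with their raised Cxcl9, and the difference from these alone was 0.55 ± 0.15 (adjusted p = 0.271). Without that pair of arrays the 12 h value was 0.94. The 16 h call was lost without the untreated pair (0.65, adjusted p = 0.0866). Il18, whose product this protein binds, lay between 5.13 and 5.51 on all arrays.

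Il1r1 encodes the signalling receptor for IL-1. Its control values spread widely: in IFNg-/- 6.40 untreated, 6.88 at PBS 4 h and 6.0 at PBS 12 h, and in the same order 5.98, 7.70 and 6.42 in SOCS1-/-IFNg-/-. At 2 h after interferon-gamma the arrays read 7.13 (IFNg-/-) and 7.65, at 4 h 8.68 and 7.86, and by 48 h 5.95 and 5.92. In both genotypes the PBS 4 h array was the highest control, and in SOCS1-/-IFNg-/- it was close to the interferon 4 h array (7.70 and 7.86). Against all controls Il1r1 rose by 1.71 ± 0.22, or 3.26-fold, at 4 h (adjusted p = 0.000504). Against PBS 4 h the difference was 0.98 ± 0.27 and was not called (adjusted p = 0.104).

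Il6st encodes gp130, the signalling chain shared by IL-6, IL-11 and related cytokines. Control arrays read 7.14 to 7.76. The 4 h arrays, at 7.96 (IFNg-/-) and 8.60, were above all of them. It rose by 0.90 ± 0.14 at 4 h (adjusted p = 0.00219), and at 2 and 12 h the differences were 0.46 ± 0.14 and 0.49 ± 0.14, neither called. A second probe set, with a lower mean, gave 0.58 ± 0.21 at 4 h and was not called (adjusted p = 0.142). Without the SOCS1-/-IFNg-/- 4 h array the value was 0.61 (adjusted p = 0.125).

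Il6ra encodes the IL-6 binding chain that pairs with gp130. It was called in no comparison and differed at 4 h by 0.12 ± 0.19 (adjusted p = 0.832). The SOCS1-/-IFNg-/- arrays at 12 and 48 h were the lowest, with 6.34 and 6.37, and all others lay between 6.61 and 7.43. Measures of RNA quality were at the high end on these arrays. The 3-prime minus 5-prime difference of the Gapdh control probes was 1.16 on that 12 h array and 0.83 on that 48 h array, and that of Actb was 1.13 and 1.56. Over all other arrays Gapdh ranged from 0.37 to 0.85 and Actb from 0.33 to 1.33. The lower-mean probe set of Il6st was also lowest on that 48 h array, at 5.56. The SOCS1-/-IFNg-/- 12 h array also held the highest values of Il18bp (7.82) and Il13ra1 (6.46). The part of RNA quality in any of these values was not tested.

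Il17ra encodes a receptor chain for IL-17 cytokines. On the controls it read 6.62 to 6.92. The IFNg-/- arrays read 7.06 at 2 h and 7.23 at 4 h, the SOCS1-/-IFNg-/- arrays 7.03 and 7.72, all above the controls, and from 12 h both genotypes were back between 6.61 and 6.88. It rose by 0.76 ± 0.10 at 4 h (adjusted p = 0.000537). Its other probe set rose by 0.92 ± 0.20 at 2 h and 1.5 ± 0.20 at 4 h (adjusted p = 0.0285 and 0.000489 over all probe sets with 1 symbol).

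Il15ra encodes the chain that binds IL-15 and presents it to neighbouring cells. Control arrays lay between 7.58 and 8.02, with both PBS 4 h arrays (8.02 and 7.84) the highest of their genotype. The 2 h arrays read 8.25 and 8.28 and the 4 h arrays 8.31 and 8.59, all above every control. It rose by 0.49 ± 0.09 at 2 h (adjusted p = 0.00995; 0.43 and adjusted p = 0.0533 without the untreated pair) and by 0.68 ± 0.09 at 4 h (adjusted p = 0.000534). The cytokine Il15 itself lay between 2.48 and 2.87, near the floor. Il2ra, the immediate neighbour of Il15ra on chromosome 2 with no protein-coding gene between them, lay between 2.66 and 2.97.

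Il13ra1 encodes a chain that binds IL-13 and pairs with the IL-4 receptor. It read 5.08 to 5.54 on the IFNg-/- controls and 5.52 to 6.0 on the SOCS1-/-IFNg-/- controls. The 4 and 12 h arrays read 6.30 and 5.91 in the former and 6.44 and 6.46 in the latter, each above the controls of its genotype. It rose by 0.80 ± 0.15 at 4 h (adjusted p = 0.00641). The 12 h difference of 0.62 ± 0.15 was not called (adjusted p = 0.0624). Array weights ended the 4 h call (0.80, adjusted p = 0.139), as did leaving out the SOCS1-/-IFNg-/- 4 h array (0.86, adjusted p = 0.0855).

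Among the cytokines the largest differences by time were those of Il1a. Il1a, which like IL-1 beta binds the IL-1 receptor, read 4.92 to 5.11 on the 6 control arrays. At 0.5 h it read 5.45 (IFNg-/-) and 5.46 and at 1 h 5.49 in both genotypes, above all controls. The differences were 0.42 ± 0.09 (adjusted p = 0.369) and 0.46 ± 0.09 (adjusted p = 0.0882), neither called. The 1 h difference was called with array weights (adjusted p = 0.0154), without the interferon 4 h pair (0.0472) and without the 12 h pair (0.0238). No PBS liver was taken at these times. Il6 read 2.49 to 2.76 on controls and 2.83 and 3.01 at 1 h, near the floor, and differed by 0.30 ± 0.08 (adjusted p = 0.262). The other cytokines above the floor kept to narrow ranges: Il12b 5.49 to 5.94, Il13 6.22 to 6.57 and Il9 5.21 to 5.77.

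Of the receptor chains above the floor that were not called, most had narrow ranges. Il2rb, shared by the IL-2 and IL-15 receptors, lay between 5.21 and 5.67, Il10ra between 5.33 and 5.59, Il12rb1 between 5.07 and 5.38 and Il27ra between 7.28 and 7.76. Il10rb, shared by IL-10 and IL-22 receptors, lay between 6.48 and 6.84, Il3ra between 5.35 and 5.86 and Il18rap between 4.92 and 5.40. Near the floor, Il12rb2 spanned 3.47 to 3.76, Il18r1 2.84 to 3.20 and Il1rap, the accessory chain of the IL-1 receptor, 2.52 to 2.87. The antagonists and decoys other than the 2 called spanned 4.07 to 4.64 (Il1r2), 3.35 to 3.78 (Il13ra2) and 2.33 to 2.77 (Il1f5, the IL-36 receptor antagonist). On chromosome 1, Il1r2 directly neighbours Il1r1, and Il18r1 neighbours Il18rap. Of these 4 genes Il1r1 was called; with array weights Il18rap was called too, at 2 h. The cytokines Il10, Il11, Il3, Il5, Il4 and Il17d all averaged below 5 and spanned 0.34, 0.41, 0.36, 0.37, 0.54 and 0.38. The ranges of the remaining members near the floor ran from 0.26 (Il9r) to 0.69 (Il16).

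Interferon-gamma was next set against PBS of the same time, a control that shares injection and hour. The interferon arrays are the ones used above, so these comparisons are not independent of them. At 4 h, 4 of 44 members were called, against 1.36% of all genes, and each rose: Il1rn by 1.41 ± 0.22 (adjusted p = 0.0044; 0.88 or 1.95 where 1 of the 4 h arrays was left out), Il6st by 0.90 ± 0.18 (0.0216), Il17ra by 0.64 ± 0.12 (0.0176) and Il15ra by 0.52 ± 0.11 (0.0324). Il13ra1 differed by 0.60 ± 0.19 (adjusted p = 0.155). Array weights left Il1rn alone called. Without the SOCS1-/-IFNg-/- 4 h array Il6st, Il17ra and Il15ra lost their calls (adjusted p = 0.31, 0.267 and 0.341), and Il1rn and Il1r1 (1.51, adjusted p = 0.0162) were called. Without the IFNg-/- 4 h array the Il1r1 value was 0.45 (adjusted p = 0.364). The second probe set of Il6st differed from PBS 4 h by 0.44 ± 0.26 and was not called (adjusted p = 0.568). At 12 h limma called 0 members, against 0.109% of all genes. An unadjusted p under 0.05 was found for 4 members (9.09%), against 7.07% of all genes.

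**Figure D3:**
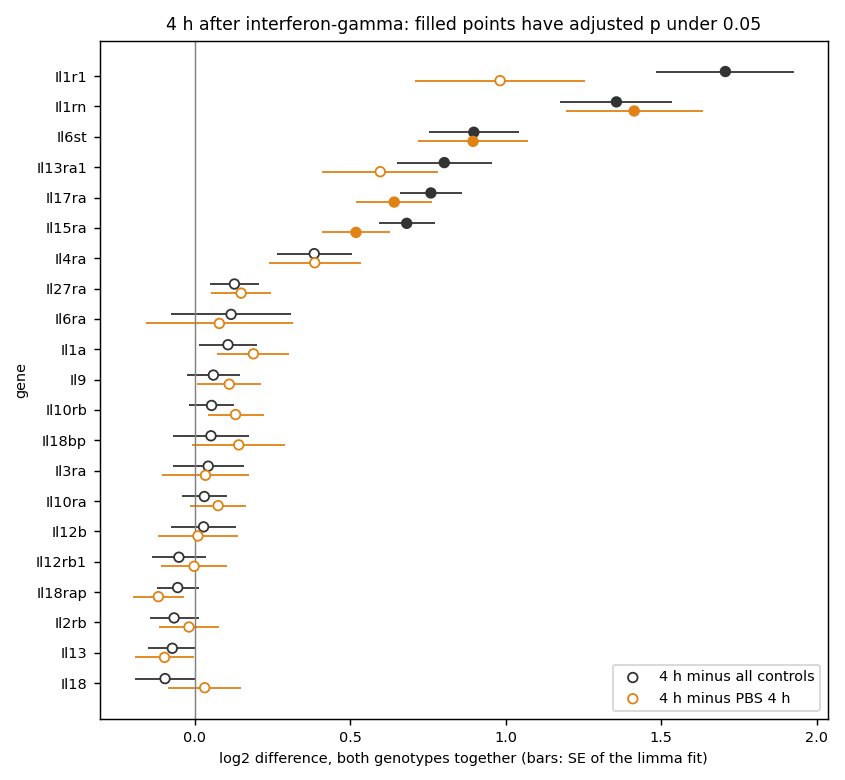
Log2 difference at 4 h, both genotypes together, for the 20 members at or above the floor and Il1rn, against all 6 control arrays (dark) and against the PBS 4 h arrays (orange); bars are SE and filled points were called. Il1r1 drops from 1.71 to 0.98 when PBS 4 h is the control, while Il1rn and Il6st move little.

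Among the cell type markers, a few macrophage genes alone were called at 4 h. Of 14 macrophage markers C1qb, Cd14 and Fcgr1 were called higher at 4 h, where 5.03% of all genes were called. Against PBS 4 h, C1qb and Cd14 were called, where 1.36% of all genes were. The median difference of the macrophage list at 4 h was 0.09 against all controls. The mean of that list was 6.73 and 6.92 on the 4 h arrays, against 6.57 to 6.69 on IFNg-/- and 6.68 to 6.77 on SOCS1-/-IFNg-/- controls. The mean of the neutrophil list was 5.27 and 5.26, against 5.12 to 5.27 on controls. No T cell, NK cell, B cell, mast cell, dendritic, endothelial or hepatocyte marker was called at 4 h. The part of cell numbers in the receptor values was not tested.

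Signalling genes downstream of these receptors were taken from lists chosen with earlier results of these data known. The share of all genes called was 5.03% in the 4 h comparison, against 0.158% (1 h), 1.66% (2 h) and 1.42% (12 h). Of 22 measured JAK and STAT pathway genes, 6 rose and 0 fell at 4 h, among them the feedback inhibitors Socs2 (3.06 ± 0.39, adjusted p = 0.000453) and Socs3 (1.5 ± 0.18), the kinases Jak1 (0.41 ± 0.07) and Jak2 (0.57 ± 0.14), Stat3 (0.68 ± 0.10), which gp130 activates, and the phosphatase Ptpn2 (0.77 ± 0.16). At 2 h Socs2 and Socs3 rose, and at 12 h Stat6, the factor downstream of the IL-4 receptor, by 0.47 ± 0.11. Of 17 genes of IL-1 and IL-18 signalling 5 rose and 0 fell at 4 h: the adaptor Myd88 (1.14 ± 0.17, adjusted p = 0.00154), the NF-kB subunit Rela (0.59), the NF-kB inhibitors Nfkbia (0.62) and Nfkbib (0.39), and Nfkbiz (0.87). Nfkbiz, an inducible cofactor of NF-kB, had risen at 1 h by 1.20 ± 0.17 and at 2 h by 1.54 ± 0.17. Of 24 related cytokines and receptors with other names, 3 rose and 0 fell at 4 h, namely Osmr (1.26 ± 0.21), the oncostatin M receptor that pairs with gp130, Csf2rb2 (0.74 ± 0.13) and F3 (2.05 ± 0.41), the tissue factor, a member of the class II cytokine receptor family. These differences are from all controls. Against PBS 4 h, where 1.36% of all genes were called, 4 of 22, 3 of 17 and 2 of 24 were called, all higher. Jak2, Ptpn2, Nfkbia, Rela and F3 were not called there. The medians of the 3 lists at 4 h against all controls were 0.11, 0.18 and -0.03. For 6 of the genes called at 4 h, the SOCS1-/-IFNg-/- minus IFNg-/- difference was also called larger in the 4 h pair of arrays than in the other 10 pairs. The excess was 2.78 for F3, 2.08 for Socs2, 1.20 for Osmr, 1.04 for Myd88, 0.83 for Jak2 and 0.83 for Ptpn2. Their 4 h values are thus means over arrays that stood apart at that time. That pair is 1 array of each genotype, so a genotype difference and 1 deviant array cannot be told apart.

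The genotypes were compared within pairs of arrays that share treatment and time, as SOCS1-/-IFNg-/- minus IFNg-/-. By limma 0 of 44 members were called over all 11 pairs or in the control pairs. The same held for early (0.5 to 4 h) and for late (12 to 48 h) minus control pairs. In these 4 comparisons, in order, 0.218%, 0.0121%, 0% and 0% of all genes were called. Members with an unadjusted p under 0.05 numbered 2, 1, 1 and 2 (4.55%, 2.27%, 2.27% and 4.55%). Of all genes, 8.61%, 4.52%, 3.48% and 11.37% had such a p. Il1rn was higher in SOCS1-/-IFNg-/- in 8 of 8 interferon pairs, by 0.02 to 1.28, and in 2 of 3 control pairs, and its difference averaged over control, early and late pairs was 0.29 ± 0.09 (adjusted p = 0.329). Il13ra1 was higher in 3 of 3 control pairs, by 0.42 to 0.46, and in 5 of 8 interferon pairs. Its difference in the interferon pairs ran from -0.32 at 24 h to 0.57 at 16 h. On the same average Il13ra1 differed by 0.26 ± 0.08 (adjusted p = 0.293). Il18bp stood 0.56 and 0.49 higher in SOCS1-/-IFNg-/- at 12 and 16 h and 0.06 and 0.24 lower at 24 and 48 h, and its late minus control difference was 0.13 ± 0.17 (adjusted p = 0.777).

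The 4 h pair differed from the other 10 pairs in 2 members, against 3.36% of all genes called, so that the share of members called (4.55%) lay near the background. That pair is 1 array of each genotype, and its p-values rest on the spread of the other pairs, taken at other times or as controls. A genotype difference at 4 h and 1 deviant array therefore cannot be told apart. The difference of Il1rn was 1.28 in this pair and 0.21 on average in the others, an excess of 1.07 ± 0.18 (adjusted p = 0.00266). That of Il4ra, which encodes the IL-4 binding chain also used by IL-13, was 0.68 against 0.05, an excess of 0.63 ± 0.15 (adjusted p = 0.034). Il4ra read 7.58 on the SOCS1-/-IFNg-/- 4 h array and 6.73 to 7.17 on the other 21. Against all controls at 4 h, both genotypes together, Il4ra differed by 0.38 ± 0.12 (adjusted p = 0.0859). Where the IFNg-/- 4 h array was left out, the value was 0.70. The 4 h array lay 0.02 above the mean of its controls in IFNg-/- and 0.75 above it in SOCS1-/-IFNg-/-. The second probe set of Il4ra, near the floor, had the other sign in the pairs, with an excess of -0.45 ± 0.17 (adjusted p = 0.186). Quantile normalization ended the call of the excess in the 4 h pair (0.57, adjusted p = 0.0509), as did leaving out the untreated pair (adjusted p = 0.0518) or the PBS 12 h pair (0.0511). Il1r1 showed the opposite sign, with a pair difference of -0.82 at 4 h and an excess of -1.06 ± 0.30 that was not called (adjusted p = 0.0717). Without the untreated pair it was called (-1.14, adjusted p = 0.0203), and so it was without the PBS 4 h pair (-0.999, adjusted p = 0.046). Il17ra exceeded the other pairs by 0.47 ± 0.14 (adjusted p = 0.0758), and by 1.21 ± 0.20 on its other probe set (adjusted p = 0.00224); the first was called without the interferon 16 h pair. With array weights neither Il1rn nor Il4ra was called. For this test the weights were estimated without a term for the 4 h pair, so its own deviation counted against its weight. That setting therefore cannot show whether the calls hold.

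**Figure D4:**
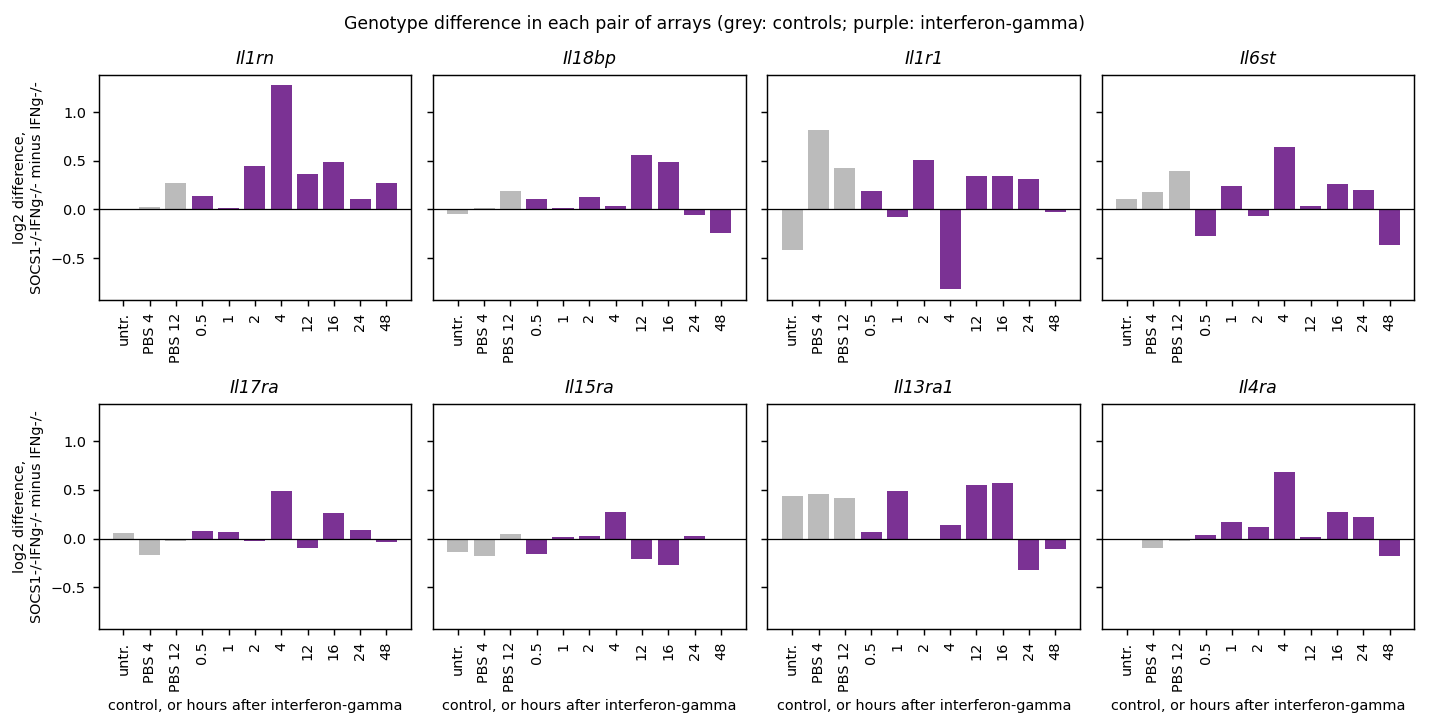
Log2 difference between the genotypes in each of the 11 pairs of arrays for the 8 called members, with controls in grey and interferon-gamma times in purple. Il1rn is above 0 in all 8 interferon pairs with its tallest bar at 4 h (1.28), where Il1r1 has its deepest negative bar (-0.82).

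The promoters of the members were searched for a motif of the interferon response. RefSeq windows of 300 bases (250 before to 50 after an annotated start, GRCm38.p6) were found for 35 of the 44 members, in 47 windows. GAAANNGAA, the core of the interferon-stimulated response element bound by interferon regulatory factors, was present in 5 of these windows (10.6%) and in 8.56% of 32851 windows of all genes. Both strands were searched, and a match describes letters and not a bound site. Of the called members 7 had windows (11 in all). Their windows held 2 matches, both at Il15ra. These windows are shown because Il15ra was called at 2 h and 4 h, with the match in capitals; the first reads on the opposite strand and begins at position -149 from the annotated start, and the second begins 30 bases after the other start. They lie at chr2:11705043-11705342 and chr2:11705462-11705761 on the plus strand.
Il15ra, first window: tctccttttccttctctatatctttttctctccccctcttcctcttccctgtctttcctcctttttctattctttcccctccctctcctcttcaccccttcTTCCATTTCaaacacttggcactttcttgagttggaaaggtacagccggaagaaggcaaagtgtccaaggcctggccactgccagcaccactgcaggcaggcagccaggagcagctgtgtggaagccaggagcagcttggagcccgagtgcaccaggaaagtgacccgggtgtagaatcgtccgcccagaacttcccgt
Il15ra, second window: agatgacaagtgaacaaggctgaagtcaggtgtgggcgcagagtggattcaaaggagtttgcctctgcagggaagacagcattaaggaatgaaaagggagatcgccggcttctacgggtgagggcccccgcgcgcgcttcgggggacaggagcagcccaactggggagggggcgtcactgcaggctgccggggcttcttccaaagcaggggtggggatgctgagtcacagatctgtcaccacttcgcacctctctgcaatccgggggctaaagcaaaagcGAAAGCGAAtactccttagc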

How the data were processed

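Liver RNA was measured on 22 Affymetrix arrays, 1 per genotype and condition. The deposited values are log2 expression per probe set, with array medians that lie close together. For their making, affy is listed in the submitters' processing notes; how background was corrected, arrays normalized and probes summarised is not stated there or in the labels. Values ran from 1.73 to 13.50 with 0 missing, and array medians from 5.64 to 5.71. Of 12488 probe sets, 66 control, 396 with several symbols and 1193 with none were left out, and 10833 gave 8251 genes. The number of arrays limits the precision.

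All genes were fitted with limma 3.58.1 in R 4.3.3 and adjusted by Benjamini-Hochberg within a comparison. Times were tested in a model of condition and genotype (10 residual degrees of freedom), each against the mean of the 3 control conditions or PBS of the same time. Genotypes were tested on 11 within-condition differences (8 residual degrees of freedom; 9 for the 4 h pair). Arrays are paired by shared treatment and time, as labelled. The fits were tested on simulated data. Members called were described in full, then the 10 above the floor with the widest range, then the rest by range. The members, lists and tests were chosen with earlier results of these data known. Alternatives were other probe sets, a floor filter, quantile normalization, trend and robust fitting, array weights and left-out arrays; leaving out single 4 h arrays was added after the data were seen.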

Additional observations from a re-analysis of the deposited data

Results flagged for a closer look

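The difference between genotypes in Il1rn was 1.07 larger in the interferon 4 h pair than in the other 10 pairs, and that in Il4ra 0.63 larger, by limma's test of that difference across all genes. That pair is 1 array of each genotype, so a deviant array cannot be told apart from a genotype difference. The second probe set of Il4ra had the opposite sign (-0.45). Of 48 groups of 4 arrays (1 genotype and phase, 12 members), 1 had an array that stood apart: Il13ra1 at 12 h in IFNg-/- read 5.91 and the nearest of the other late arrays 5.52; chance gives such a gap in about 1 of 20 groups, and the 4 arrays of such a group were taken at different times.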

How the results depend on the processing

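Counts of called members by time held within 1.5 times under every alternative at 0.5, 4, 24 and 48 h. With array weights 1 member was called at 1 h (Il1a), 8 at 2 h, 1 at 4 h against PBS and 0 in the 4 h pair. The count for the 4 h pair decides nothing, because the weights were estimated without a term for that pair. Leaving out genes below the floor gave 1 at 2 h and 1 in the 4 h pair, because Il1rn is then not tested. Quantile normalization gave 1 in the 4 h pair, and without the SOCS1-/-IFNg-/- 4 h array 2 were called against PBS. Leaving out 1 pair of arrays gave 0 to 1 called at 1 h, 1 to 4 at 2 h (Il17ra and Il1r1 added without the interferon 4 h pair), 1 to 2 at 12 h (Il1rn added without the 4 h pair, Il13ra1 without the 24 h pair), 0 to 1 at 16 h and 1 to 3 in the 4 h pair. The other probe set of Il4ra reversed its sign at 4 h (-0.089) and in the 4 h pair (-0.45). Without a replicate block (arrays unpaired) 0 members were called over all pairs, as with it. With a floor of 4.5 or 5.5 the members near it numbered 17 and 31. Where a cause is not given above, the cause was not tested. There was 1 array per genotype and condition, so no spread within a group could be measured, and for members near the floor the signal limits what could be detected.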
